A study of Homo sapiens with 58 samples.

Results

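Hypoxia target genes are the genes that cells switch on when oxygen is short, and 10 of them were followed here through the differentiation of human embryonic stem cells towards somites. They were named one by one and found by gene symbol among the 19084 genes of the deposited tables, where all 10 were listed. They are ADM, VEGFA, BNIP3, CA9, NDRG1, EGLN3, ANKRD37, PDK1, P4HA1 and KDM3A. They moved in different directions and on different days. ADM fell to 0.486 ± 0.364 normalised CPM, a count scaled to library size, on Day3, against 152 ± 87.7 on Day0 (SD, n = 3 each). PDK1 fell on Day2 and again on Day3, and it fell through the whole time course. KDM3A was low on Day1 only among the 4 days, and EGLN3 was lowest on Day2. ADM and NDRG1 were higher in the middle window of the course than in the first and last. Neither passed the edgeR test for a difference among all time points. CA9 was close to 0 in every library.

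Cells answer low oxygen mainly through hypoxia-inducible factor (HIF), a pair of an oxygen-sensitive alpha subunit (HIF1A or EPAS1) and a stable partner, ARNT. With oxygen, prolyl hydroxylases of the EGLN family mark the alpha subunit, the VHL ubiquitin ligase binds the mark, and the subunit is broken down. Without oxygen the pair reaches the nucleus and binds a short DNA element near its target genes. The targets bring in blood vessels, lower the use of oxygen in mitochondria, raise glycolysis, handle acid, and include oxygenases that use oxygen themselves. Several of the same genes also answer growth factors, amino acid shortage or differentiation signals. The labels do not state the oxygen level of these cultures.

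The cells were H1, a human embryonic stem cell line of wild-type genotype at passages 30 to 40, and all libraries came from this one line. The daily series had 3 libraries on each of 4 days. Day0 was undifferentiated cells in E8, a defined stem cell medium. Day1 was mesendoderm after 24 h in E8 with 100 ng/mL activin A and 3 µM CHIR99021, a Wnt pathway activator. Day2 was presomitic mesoderm after another 24 h in E6, which lacks FGF2 and TGFβ1, with 2 µM A83-01, 3 µM CHIR99021, 100 ng/mL FGF2 and 100 ng/mL NOGGIN. Day3 was somite cells in E6 with 1 µM PD0325901, 2.5 µM IWR1, 2 µM A83-01 and 100 ng/mL NOGGIN. A83-01 inhibits activin and nodal receptors, NOGGIN binds BMPs, PD0325901 inhibits MEK and IWR1 inhibits Wnt signalling. The time course of presomitic mesoderm sampled 23 times, spaced 30 min apart, between 30 and 690 min, with 2 libraries each. The labels state neither its medium nor its zero point.

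Total expected counts were 3.16 to 7.81 M per library in the daily series and 2.53 to 8.96 M in the course. The summed stage markers followed the day labels. The summed level of 5 pluripotency markers had a median of 2790 normalised CPM on Day0, 1550 on Day1, 360 on Day2 and 169 on Day3. The 5 mesendoderm markers were highest on Day1 (median 1040), the 5 presomitic markers on Day2 (median 402) and the 5 somite markers on Day3 (median 605). Not every single marker did so. DLL1 of the presomitic list averaged 204 ± 36.4 normalised CPM on Day3, against 59.5 ± 21.8 on Day2. SOX2 of the pluripotency list averaged 41.7 ± 13.6 on Day1 and 92.6 ± 24.3 on Day2 (SD, n = 3 each). In the course, the somite markers summed to a median of 11.7 normalised CPM at 30 to 90 min, 192 at 300 to 360 min and 807 at 630 to 690 min. The presomitic markers summed to a median of 1180, 1200 and 791 in the same windows. Normalised CPM relate a gene's count to the library total after scaling by TMM, and the daily series and the course were scaled apart, so no level is compared between them. These are bulk libraries, in which fewer cells of a type and less RNA per cell cannot be told apart.

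The start regions of 4 members that moved in the tests below are shown with the core of the HIF-binding element, ACGTG or GCGTG, which reads CACGT or CACGC on the other strand. Each sequence runs from 250 bases before to 50 bases after the RefSeq start site on GRCh38.p14, 5′ to 3′ along the gene, with every match in capitals. ADM lies at chr11:10304823-10305122 on the + strand, BNIP3 at chr10:131981874-131982173 on the - strand, PDK1 at chr2:172555840-172556139 on the + strand and KDM3A at chr2:86441211-86441510 on the + strand.
ADM: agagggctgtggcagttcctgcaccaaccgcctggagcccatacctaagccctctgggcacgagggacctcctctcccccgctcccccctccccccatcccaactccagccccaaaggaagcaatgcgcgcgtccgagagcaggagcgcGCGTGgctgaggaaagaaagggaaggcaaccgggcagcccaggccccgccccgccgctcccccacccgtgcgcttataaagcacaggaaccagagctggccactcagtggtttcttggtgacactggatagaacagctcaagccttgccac
BNIP3: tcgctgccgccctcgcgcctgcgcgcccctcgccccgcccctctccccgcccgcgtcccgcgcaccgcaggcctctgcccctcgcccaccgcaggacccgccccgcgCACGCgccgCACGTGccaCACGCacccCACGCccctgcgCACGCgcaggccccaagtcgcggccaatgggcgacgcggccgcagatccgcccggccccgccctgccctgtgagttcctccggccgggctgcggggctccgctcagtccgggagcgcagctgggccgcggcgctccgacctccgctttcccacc
PDK1: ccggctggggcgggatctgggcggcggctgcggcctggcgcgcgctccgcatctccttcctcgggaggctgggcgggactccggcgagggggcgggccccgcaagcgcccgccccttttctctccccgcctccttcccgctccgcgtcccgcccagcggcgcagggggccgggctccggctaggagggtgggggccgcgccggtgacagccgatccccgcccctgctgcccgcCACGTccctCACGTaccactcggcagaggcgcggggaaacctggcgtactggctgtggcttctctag
KDM3A: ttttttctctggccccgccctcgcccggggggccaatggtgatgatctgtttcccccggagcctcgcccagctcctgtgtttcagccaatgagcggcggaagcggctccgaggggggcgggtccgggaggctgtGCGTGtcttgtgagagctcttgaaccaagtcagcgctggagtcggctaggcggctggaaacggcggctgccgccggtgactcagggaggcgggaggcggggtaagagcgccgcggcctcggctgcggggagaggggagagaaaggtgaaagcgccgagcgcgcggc
ADM has 1 match, at -101 from the start site, and KDM3A has 1 match, at -116 (or -26 from its other listed start site). PDK1 has 2 matches, at -17 and -8, and its other listed start site, 5′ of this one, has none. BNIP3 has 6 matches between -143 and -104, with CACGT and ACGTG overlapping in 1 palindrome. RefSeq start regions were at hand for 8 of the 10 members (not for VEGFA and NDRG1), and those of 7 held a match at 1 of their start sites or more. EGLN3 had none in this window. Of all 35116 start regions of the same length, 48.4% held a match, so a match here is only a description of the sequence.

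Across members, levels were compared as TPM, a share of all transcripts that corrects for gene length. On Day0 ADM was the most abundant of the 10 with 260 ± 151 TPM, followed by BNIP3 with 115 ± 89.9 TPM and P4HA1 with 71.9 ± 25.2 TPM (SD, n = 3). The 3 ranges overlapped. On Day3 the order was P4HA1 with 68.8 ± 1.49 TPM, BNIP3 with 52.8 ± 14.3 TPM and KDM3A with 39.1 ± 8.02 TPM, while ADM was ninth of 10 with 0.793 ± 0.561 TPM (SD, n = 3). Over the 46 course libraries P4HA1 (46.6 ± 8.62 TPM), BNIP3 (40.4 ± 11.8 TPM) and KDM3A (21.7 ± 4.64 TPM) again led, and EGLN3, NDRG1, PDK1, ADM and VEGFA lay between 14.6 and 9.42 TPM (means, n = 46). Their order changed along the course, with PDK1 at 19.9 TPM and EGLN3 at 13.05 TPM at 30 to 90 min, and PDK1 at 4.62 TPM and EGLN3 at 19.8 TPM at 630 to 690 min (means, n = 6). ANKRD37 and CA9 were lowest, with 2.08 ± 2.36 and 0.367 ± 0.746 TPM.

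**Figure D1:**
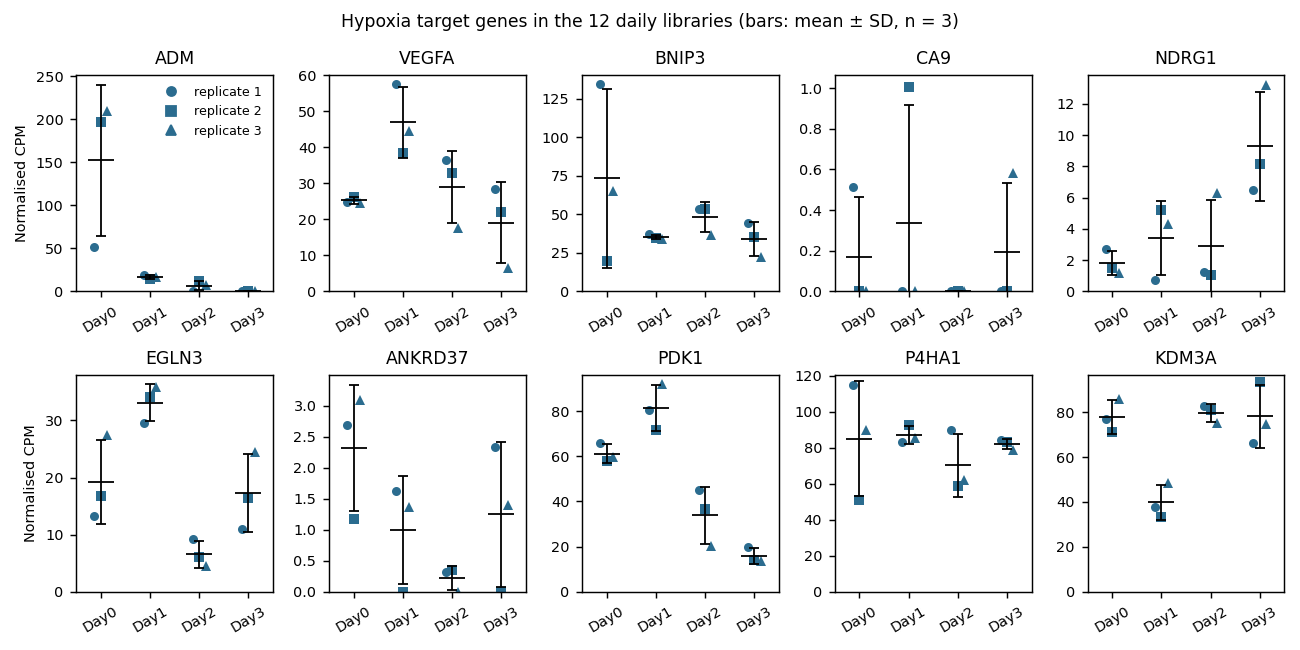
Normalised CPM of the 10 genes in each daily library (symbols: replicates, bars: mean ± SD, n = 3), with days from left to right. ADM sits between 51.5 and 209 on Day0 and under 1 on Day3, KDM3A dips on Day1 and EGLN3 on Day2, and the 3 Day0 libraries disagree for BNIP3.

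The secreted members were ADM and VEGFA. ADM encodes adrenomedullin, a peptide that widens blood vessels and helps to form lymphatic vessels. It had 51.5, 197 and 209 normalised CPM on Day0, 19.3, 14.9 and 16.8 on Day1, 0.952, 12.0 and 6.90 on Day2 and 0.898, 0.209 and 0.351 on Day3. Each day lay below the day before it with no overlap, although Day0 replicate 1 lay well below the other Day0 libraries. Day2 and Day3 were barely apart: Day2 replicate 1 held 3 counts and Day3 replicate 1 held 5, so scaling to library size set their order. The fall on Day1 against Day0 was -3.16 ± 0.52 on the log2 scale (SE, edgeR quasi-likelihood test, adjusted p = 0.000949). Between Day2 and Day1 the change of -1.37 ± 0.57 did not pass (adjusted p = 0.1), though it did with no filter on low counts (0.0479) and without Day0 replicate 1 or Day2 replicate 2 (lowest 0.0449). On Day3 against Day2 ADM fell by 3.71 ± 0.84 (adjusted p = 0.00557), and by 3.03 without Day2 replicate 2 and 4.35 without Day3 replicate 1. Against Day0, Day3 was lower by 303-fold in the fit (log2 fold change -8.24 ± 0.75, adjusted p = 7.66e-07) and by 473-fold without Day3 replicate 1. On log2(TPM + 1) it was lower by 126-fold, where the added 1 shrinks folds that involve low levels. Day3 rested on 9 counts in 3 libraries, or 0.511 CPM with an exact 95% counting interval of 0.234 to 0.971, and Day0 on 2791 counts, or 146 CPM (141 to 151). The low Day3 level is therefore a level close to the detection floor, 3 counts or 0.17 CPM over the 3 libraries.

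In the course ADM rose and then fell. It lay between 7.54 and 15.1 normalised CPM at 300 to 360 min (median 10.7), against 4.19 to 7.03 at 30 to 90 min (median 5.17, n = 6 each), with no overlap. The log2 fold change was 1.02 ± 0.34 (SE, edgeR, adjusted p = 0.0267). At 630 to 690 min it lay between 2.46 and 10.1 normalised CPM (median 4.21), lower than at 300 to 360 min with a log2 fold change of -1.17 ± 0.34 (adjusted p = 0.0138), and 1 of these libraries, replicate 1 at 660 min, reached into the earlier range. Between the last and the first window the difference was -0.15 ± 0.34 (adjusted p = 0.816). The highest mean of a time point was 12.6 ± 3.48 at 360 min and the lowest 2.34 ± 0.901 at 600 min (SD, n = 2). The rise at 300 to 360 min did not pass without replicate 1 of 30, 90, 330 or 360 min or replicate 2 of 60 or 90 min (highest adjusted p = 0.0819), nor did the later fall without replicate 1 of 630 min or replicate 2 of 660 min (highest adjusted p = 0.0571). The straight-line slope over the 660 min, -0.57 ± 0.34, did not pass (adjusted p = 0.203), while that over 120 to 690 min alone did (-1.17, adjusted p = 0.0205). Among all time points ADM did not pass in edgeR (adjusted p = 0.124), but it did in DESeq2 (0.025) and on log2(TPM + 1) in limma (0.0357).

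VEGFA encodes the growth factor that directs blood vessel growth. It had 24.8, 26.3 and 24.6 normalised CPM on Day0, 57.6, 38.5 and 44.6 on Day1, 36.3, 32.8 and 17.5 on Day2 and 28.4, 22.1 and 6.54 on Day3. All Day1 libraries lay above all Day0 and Day2 libraries, but neither step passed. The log2 fold change was 0.89 ± 0.40 on Day1 against Day0 (adjusted p = 0.202) and -0.70 ± 0.41 on Day2 against Day1 (adjusted p = 0.235). In the 6 libraries of Day1 and Day0 alone the first step passed (adjusted p = 0.00838). VEGFA also passed among all days in DESeq2 (0.04) and with no filter on low counts (0.0263), against 0.061 in the full fit. In the course its slope was -0.44 ± 0.17 on the log2 scale over 660 min (adjusted p = 0.0368). The highest mean was 22.4 ± 4.20 normalised CPM at 150 min and the lowest 10.9 ± 2.77 at 510 min (SD, n = 2). This slope passed the test narrowly: it failed in 14 of the 46 fits that each left out 1 library, with a highest adjusted p of 0.0854, over 120 to 690 min alone (0.232) and on log2(TPM + 1) in limma (0.0741).

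Their receptors were among 28 relatives and partners of the members, of which 22 were tested over the days and 12 (54.5%) differed among them, where 43.6% of all genes tested did. KDR, the main signalling receptor for VEGFA, averaged 100 ± 16.5 normalised CPM on Day0, 67.9 ± 11.2 on Day1, 19.5 ± 7.27 on Day2 and 5.55 ± 2.79 on Day3 (SD, n = 3). Its Day3 level was lower than that of Day0, with a log2 fold change of -4.20 ± 0.35 (edgeR, adjusted p = 2.88e-07). FLT1, a receptor that binds VEGFA tightly and limits its action, averaged 3.40 ± 3.31 normalised CPM on Day3, against 121 ± 11.7 on Day0, a log2 fold change of -5.19 ± 0.56 (adjusted p = 5.47e-06). FLT1 fell in the course too, with a slope of -2.34 ± 0.26 (adjusted p = 2.61e-11). The co-receptor NRP1 rose on Day1 to 32.0 ± 6.72 normalised CPM, against 3.38 ± 2.62 on Day0 (adjusted p = 0.00422), and fell through the course with a slope of -2.24 ± 0.23 (adjusted p = 6.35e-12). NRP2 rose in the course, with 101 ± 9.43 normalised CPM at 630 to 690 min, against 22.2 ± 3.59 at 30 to 90 min (SD, n = 6 each; adjusted p = 5.64e-15). The 5 endothelial markers, a list that holds KDR, summed to 10.6 to 25.6 normalised CPM on Day3, against 83.8 to 171 on Day0. KDR alone averaged 100 on Day0, so the fall of the sum largely repeats that of KDR. PECAM1, CDH5 and TIE1 were at 0 in all Day2 libraries, but averaged only 1.22, 0.279 and 1.86 on Day0. TEK, the other marker, lay between 9.52 and 13.3 on Day2, against 0.128 to 55.0 on Day0. The part of these markers in these results was not tested. The ADM receptor CALCRL averaged at most 3.17 normalised CPM on any day and passed in none of the comparisons between days, and its co-receptor RAMP2 averaged at most 0.913.

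The members that act on metabolism and mitochondria were PDK1, BNIP3 and CA9. PDK1 encodes pyruvate dehydrogenase kinase 1, which switches off pyruvate dehydrogenase, the enzyme that uses pyruvate inside mitochondria. It had 65.9, 58.0 and 59.7 normalised CPM on Day0, 80.7, 71.7 and 92.1 on Day1, 44.9, 36.7 and 20.1 on Day2 and 19.9, 14.2 and 13.4 on Day3. The days did not overlap, with Day1 highest and Day3 lowest. The difference of Day1 against Day0, 0.41 ± 0.25 on the log2 scale, did not pass (edgeR, adjusted p = 0.379). PDK1 fell on Day2 against Day1 (log2 fold change -1.27 ± 0.26, adjusted p = 0.00354) and on Day3 against Day2 (-1.09 ± 0.27, adjusted p = 0.00917). Against Day0 it was lower on Day2 (-0.86 ± 0.26, adjusted p = 0.0198) and on Day3 (-1.95 ± 0.27, adjusted p = 6.3e-05). The step to Day3 did not pass in a fit of the 6 libraries of both days (0.0829) or on log2(TPM + 1) in limma (0.0651). Day2 against Day0 did not pass in the 6 libraries (0.0536), without Day0 replicate 1 (0.0575) or without Day2 replicate 3 (0.0774).

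**Figure D2:**
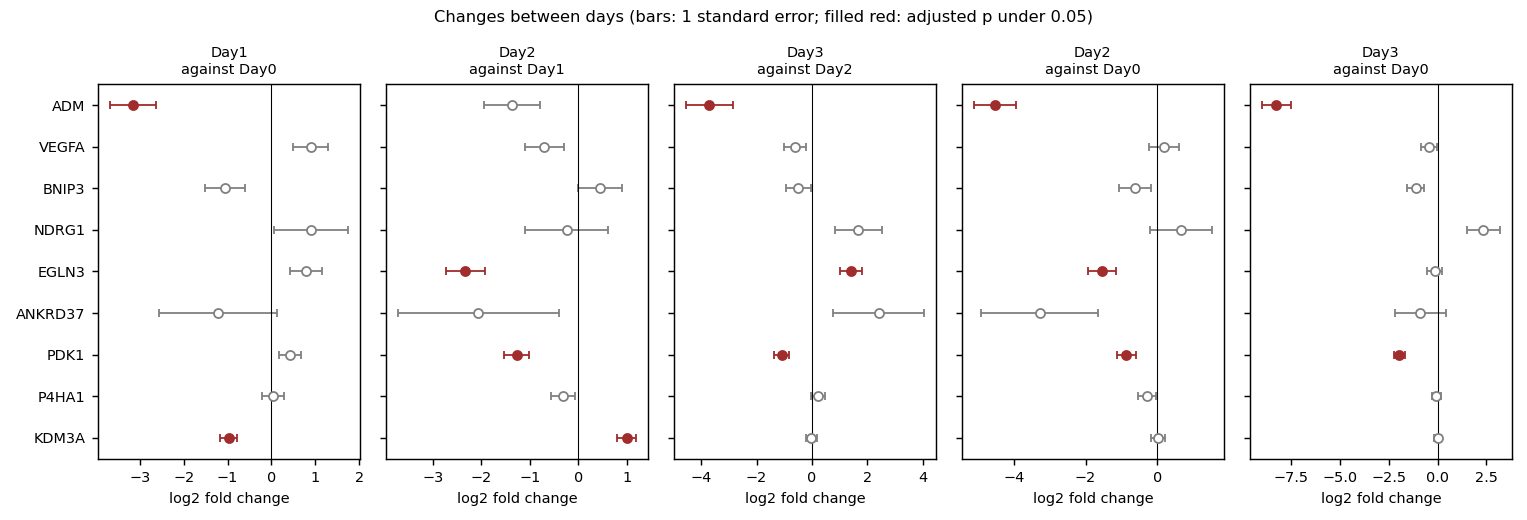
Log2 fold changes between days for the 9 members that passed the filter on low counts, with 1 standard error. Filled red points passed at an adjusted p under 0.05. ADM is filled in every panel except Day2 against Day1, and the PDK1 and EGLN3 points are filled in both Day2 panels and in the Day3 against Day2 panel.

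PDK1 fell across the whole course. It lay between 30.3 and 48.8 normalised CPM at 30 to 90 min (median 45.1), between 16.4 and 37.1 at 300 to 360 min (median 22.8) and between 7.80 and 12.3 at 630 to 690 min (median 9.17, n = 6 each). The last window overlapped neither of the others, and the first and middle windows overlapped. The slope was -2.33 ± 0.18 on the log2 scale over 660 min, a 5.01-fold fall (edgeR, adjusted p = 1.45e-16), and it passed in all 46 fits without 1 library. The fall at 300 to 360 min against 30 to 90 min was -0.72 ± 0.22 (adjusted p = 0.0146), and it did not pass without replicate 1 of 60, 300 or 360 min or replicate 2 of 90 min (highest adjusted p = 0.0901). At 630 to 690 min against 300 to 360 min PDK1 fell by 1.43 ± 0.23 (adjusted p = 1.04e-05). No other tested kinase of the family had a falling slope that passed. PDK2 averaged 8.37 ± 3.04 normalised CPM at 630 to 690 min, against 4.86 ± 1.41 at 30 to 90 min, with a rising slope (1.01 ± 0.30, adjusted p = 0.00679). PDK3 averaged 18.1 ± 3.65 and 20.5 ± 3.75 in the same windows, and PDK4 was at 0 in these windows (SD, n = 6). PDHA1, a subunit of the enzyme that these kinases act on, averaged 252 ± 42.9 and 254 ± 30.0 normalised CPM there.

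BNIP3 encodes a mitochondrial outer membrane protein that marks mitochondria for removal. It had 135, 19.6 and 65.4 normalised CPM on Day0, 37.0, 34.5 and 34.2 on Day1, 53.6, 53.6 and 36.9 on Day2 and 44.2, 35.3 and 22.6 on Day3. The 3 Day0 libraries spread over the range of all other days, and no comparison between days passed. Without Day0 replicate 2, the lowest of them, BNIP3 was lower on Day1, Day2 and Day3 than on Day0 (adjusted p = 0.0122, 0.0267 and 0.00329), and with no filter on low counts Day3 against Day0 passed (0.0333). P4HA1 had the same order in the Day0 libraries, 115, 51.0 and 89.6 normalised CPM, and ADM had its lowest Day0 level in replicate 1, where BNIP3 was highest. In the course BNIP3 fell with a slope of -0.72 ± 0.17 on the log2 scale (edgeR, adjusted p = 0.000702), which passed in all fits without 1 library. It lay between 14.9 and 44.3 normalised CPM at 630 to 690 min (median 22.5), against 30.2 to 46.0 at 30 to 90 min (median 32.1), and 1 library, replicate 1 at 630 min, stood apart from the other late ones. This window difference was -0.54 ± 0.19 (adjusted p = 0.0305) and failed without replicate 1 of 30, 60 or 690 min or replicate 2 of 60, 90, 630 or 660 min (highest adjusted p = 0.168). At 300 to 360 min all 6 libraries, from 17.0 to 28.9, lay below the 6 at 30 to 90 min, and the difference of -0.53 ± 0.19 just missed the threshold (adjusted p = 0.0503). It passed with RLE size factors (0.0445), in DESeq2 (0.0458), with no filter (0.0207) and in 19 of the 46 fits without 1 library.

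CA9 encodes carbonic anhydrase 9, a cell surface enzyme that handles acid and is used as a marker of hypoxic tumours. It did not pass the filter on low counts in either series. It was at 0 in 9 of 12 daily libraries, and the other libraries held 4 counts on Day0, 6 on Day1 and 5 on Day3. Pooled over the 12 libraries this is 0.241 CPM, with an exact 95% counting interval of 0.135 to 0.397. Day2 had 0 counts in 3 libraries, which allows up to 0.292 CPM by the 3-count floor and 0.359 CPM by the exact interval. In the course 13 of 46 libraries held counts, 57 in all, or 0.292 CPM (0.221 to 0.379). These counts were uneven, with 22 in the 6 libraries at 300 to 360 min and 23 in the 8 at 510 to 600 min. The 8 libraries at 390 to 480 min and the 6 at 630 to 690 min held 0. CA9 was tested only with no filter on low counts, where it passed in none of the comparisons. Its relatives CA12 and CA14 were well above it and rose along the course, CA12 to 21.2 ± 2.95 normalised CPM at 630 to 690 min, against 4.07 ± 1.74 at 30 to 90 min (SD, n = 6 each; adjusted p = 5.96e-11), and CA14 to 23.7 ± 6.37, against 13.1 ± 3.25 (adjusted p = 0.00162). CA2, a cytosolic enzyme of the same family, averaged 102 ± 5.49 normalised CPM on Day1, against 12.4 ± 3.50 on Day0 (adjusted p = 4.29e-06).

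EGLN3, KDM3A and P4HA1 are themselves oxygenases, enzymes that use oxygen and 2-oxoglutarate. EGLN3 is one of the prolyl hydroxylases that mark HIF and is induced by it. It had 13.3, 16.8 and 27.5 normalised CPM on Day0, 29.5, 34.1 and 35.8 on Day1, 9.20, 6.00 and 4.50 on Day2 and 10.95, 16.5 and 24.4 on Day3. Day1 was highest and Day2 lowest, neither overlapping any other day. The difference of Day1 against Day0, 0.79 ± 0.37 on the log2 scale, did not pass (edgeR, adjusted p = 0.224). EGLN3 fell on Day2 against Day1 (log2 fold change -2.33 ± 0.41, edgeR, adjusted p = 0.00115) and rose on Day3 against Day2 by 1.40 ± 0.40 (adjusted p = 0.0206). The rise failed in the 6 libraries of both days (0.0997), without Day2 replicate 2 (0.06) or 3 (0.0688), and without Day3 replicate 3 (0.111). Day2 was also below Day0 (log2 fold change -1.54 ± 0.40, adjusted p = 0.00847), which failed without Day0 replicate 3 (0.0532). In the course EGLN3 lay between 19.2 and 28.5 normalised CPM at 630 to 690 min, against 7.64 to 19.8 at 30 to 90 min. These windows overlapped only narrowly, and the difference of 0.57 ± 0.25 did not pass (adjusted p = 0.0923), though it did with no filter on low counts (0.0449) and without replicate 1 of 60 min or either replicate of 450 min (lowest 0.0179).

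KDM3A encodes a demethylase of histone H3. It had 76.8, 71.1 and 86.0 normalised CPM on Day0, 37.7, 33.1 and 48.4 on Day1, 82.8, 80.8 and 75.3 on Day2 and 66.3, 93.5 and 74.6 on Day3. All Day1 libraries lay below those of the other days, which overlapped each other. The fall on Day1 against Day0 was -0.97 ± 0.20 on the log2 scale (edgeR, adjusted p = 0.00531) and the rise on Day2 against Day1 was 1.00 ± 0.20 (adjusted p = 0.00276). Both passed in every fit without 1 library. Of its relatives, JMJD1C also fell on Day1 (-1.31 ± 0.19, adjusted p = 0.00031), while KDM3B averaged 129 ± 8.15 normalised CPM on Day1, against 191 ± 7.56 on Day0 (adjusted p = 0.0515), and rose on Day2 (adjusted p = 0.0443). In the course KDM3A differed among time points (adjusted p = 0.00642) and was highest early. It averaged 45.0 ± 9.41 normalised CPM at 30 to 90 min (SD, n = 6), 62.0 ± 9.22 at 120 to 270 min (n = 12) and 41.0 ± 4.51 at 300 to 360 min (n = 6). The slope of -0.38 ± 0.15 passed narrowly (adjusted p = 0.0405) and failed in 22 of the 46 fits without 1 library (highest 0.0947). On log2(TPM + 1) in limma neither the slope (0.105) nor the difference among time points (0.0677) passed.

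P4HA1 encodes a subunit of the prolyl hydroxylase that stabilises collagen. It changed little over the days, with means of 85.1, 87.1, 70.1 and 82.1 normalised CPM from Day0 to Day3, and no comparison between days passed. The log2 fold changes between days lay between -0.31 and 0.23, with standard errors of 0.24 to 0.25. Its course slope of -0.31 ± 0.12 (edgeR, adjusted p = 0.0405) failed in 22 of the 46 fits without 1 library (highest 0.129), on log2(TPM + 1) in limma (0.119) and over 120 to 690 min (0.137). P4HB, the partner subunit, rose on Day3 to 447 ± 42.2 normalised CPM, against 307 ± 12.0 on Day0 (adjusted p = 0.00575), and fell in the course (-0.26 ± 0.06, adjusted p = 0.00105).

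**Figure D3:**
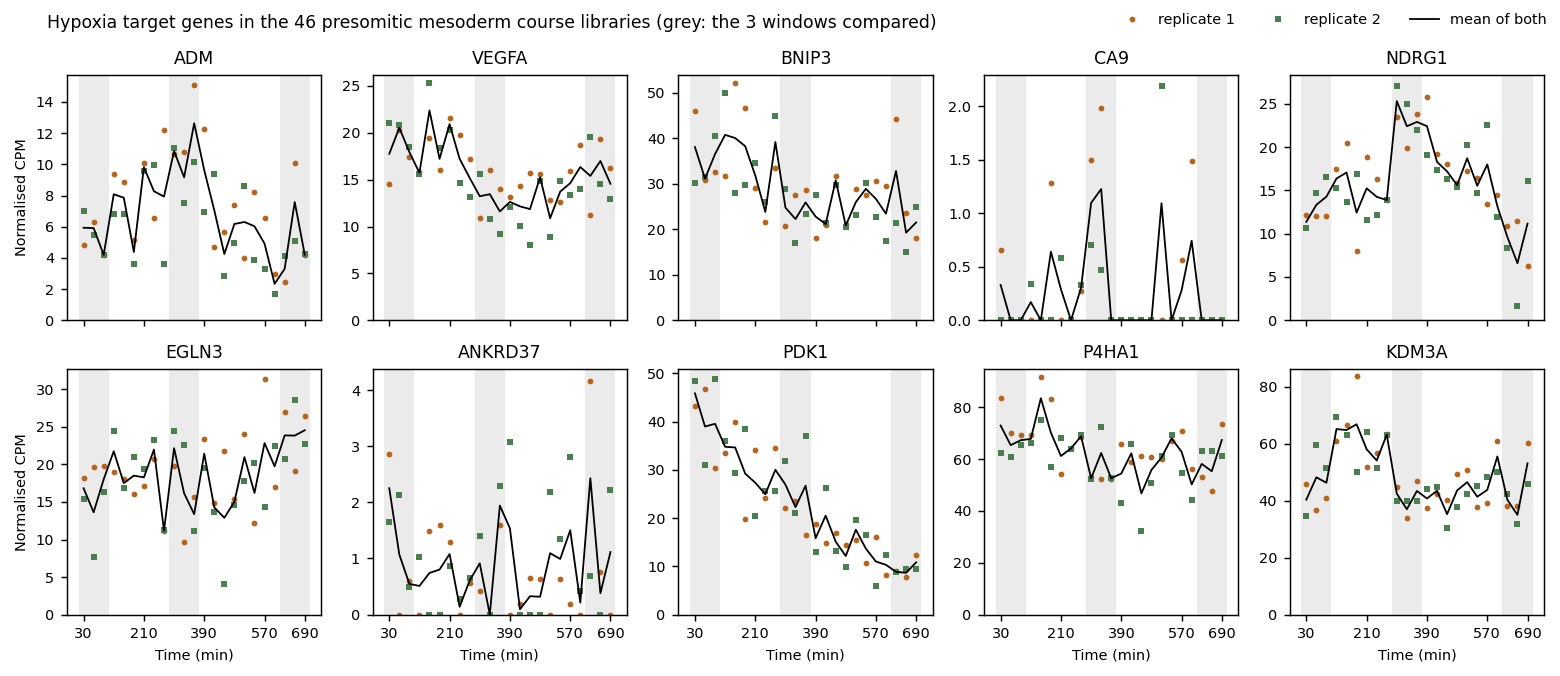
Normalised CPM of the 10 genes in each course library against time in minutes, with the mean of both replicates as a line and the 3 compared windows in grey. PDK1 falls throughout, NDRG1 and ADM are highest near 300 to 360 min, and CA9 and ANKRD37 stay near 0.

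The remaining members are NDRG1, a stress-responsive protein linked to differentiation and growth arrest, and ANKRD37, a small ankyrin repeat protein induced by HIF. NDRG1 had 2.69, 1.51 and 1.20 normalised CPM on Day0, 0.698, 5.19 and 4.30 on Day1, 1.27, 1.06 and 6.30 on Day2 and 6.47, 8.14 and 13.2 on Day3. All Day3 libraries lay above those of the other days, but the difference of Day3 against Day0, 2.34 ± 0.85 on the log2 scale, did not pass (edgeR, adjusted p = 0.0607). It passed in DESeq2 (0.0205), on log2(TPM + 1) in limma (0.0343), in the 6 libraries of both days (0.0125) and without Day1 replicate 1 or any one Day2 library (lowest 0.0364). Day3 replicate 1 lay only just above Day2 replicate 3, and the difference of Day3 against Day2, 1.67 ± 0.85, did not pass (edgeR, adjusted p = 0.167). This step passed on log2(TPM + 1) in limma (0.0377) and without Day2 replicate 3 (0.0394). In the course it lay between 19.8 and 27.1 normalised CPM at 300 to 360 min (median 23.7), against 10.6 to 16.5 at 30 to 90 min (median 12.1, n = 6 each). At 630 to 690 min it lay between 1.70 and 16.0 (median 9.61). The middle window overlapped neither of the others. NDRG1 rose at 300 to 360 min against 30 to 90 min by 0.86 ± 0.25 (adjusted p = 0.00956) and fell at 630 to 690 min against 300 to 360 min (log2 fold change -1.34 ± 0.25, adjusted p = 9.3e-05). Both passed in all fits without 1 library, and without replicate 1 of 660 min the fall was larger, with a log2 fold change of -2.03. Among all time points NDRG1 did not pass in edgeR (adjusted p = 0.1), but it did in DESeq2 (0.0274) and with no filter on low counts (0.012). NDRG4, a relative expressed in nerve and heart, averaged 34.5 ± 7.25 normalised CPM at 300 to 360 min, against 7.90 ± 1.33 at 30 to 90 min (adjusted p = 6.26e-13), and stayed at 36.4 ± 7.44 at 630 to 690 min. Of the 5 neural markers only NES clearly rose in this window, with 2897 normalised CPM on average at 300 to 360 min, against 1141 at 30 to 90 min. PAX6 (8.66 and 9.45), STMN2 (77.5 and 97.0) and MAP2 (25.9 and 29.4) averaged less, and SOX1 about the same (1.86 and 1.78). The 5 summed to 2290 to 3610 normalised CPM, against 1080 to 2000. The part of these markers in the rises of NDRG1 and ADM was not tested.

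ANKRD37 was near the detection limit. It had 21, 7 and 18 counts on Day0, 7, 0 and 7 on Day1, 1, 1 and 0 on Day2 and 13, 0 and 12 on Day3. Pooled, this is 0.195 CPM on Day2 with an exact 95% counting interval of 0.0236 to 0.704, against 2.40 CPM on Day0 (1.76 to 3.21). The difference of Day2 against Day0 did not pass in edgeR (adjusted p = 0.138) but did on log2(TPM + 1) in limma (0.0253), and none of the other comparisons passed. In the course 15 of 46 libraries had none of its counts.

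**Figure D4:**
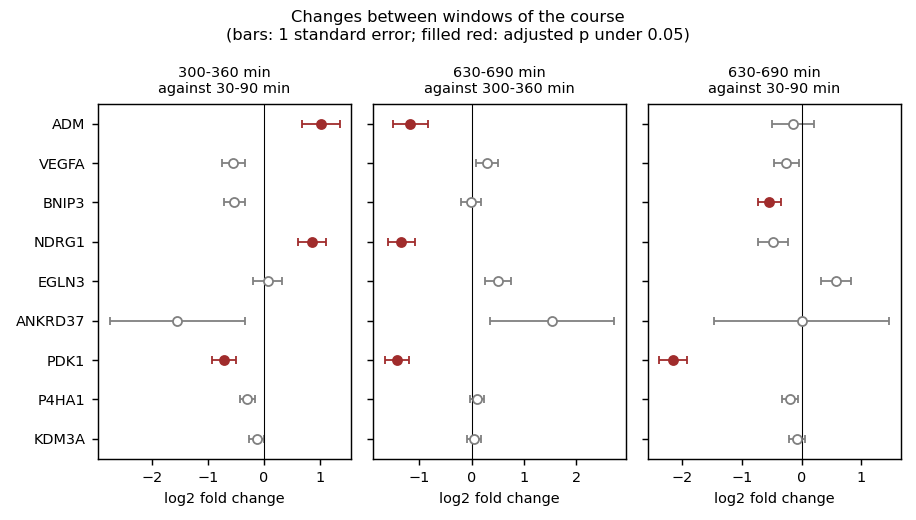
Log2 fold changes between windows of the course for the 9 members that passed the filter on low counts, with 1 standard error. Filled red points passed at an adjusted p under 0.05. ADM and NDRG1 lie right of 0 in the first panel and left of 0 in the second, and PDK1 lies left of 0 in all 3.

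The counts of members that passed were set beside the share of all genes that passed the same test. Of the 9 members tested, 4 differed among the days (ADM, EGLN3, PDK1 and KDM3A), where 43.6% of all 12765 genes tested passed. On Day1 against Day0, 2 passed, both lower (ADM and KDM3A), where 7.29% of all genes passed. On Day2 against Day1, 3 passed (EGLN3 and PDK1 lower, KDM3A higher), where 20.1% of all genes passed, and on Day3 against Day2, 3 passed (ADM and PDK1 lower, EGLN3 higher), where 22.6% did. Against Day0, 3 were lower on Day2 (ADM, EGLN3 and PDK1) and 2 on Day3 (ADM and PDK1), where 31.0% and 21.5% of all genes passed. The members' median log2 fold change was 0.03 on Day1 against Day0 (all genes -0.01), -0.61 on Day2 against Day0 (all genes -0.12) and -0.42 on Day3 against Day0 (all genes 0.04). These comparisons share the Day0 libraries. The members' share lay near that of all genes among the days and for Day2 and Day3 against Day0, and above it on Day1 against Day0 and between the later days, where a difference of 1 or 2 members decides it. Of the 3 definitive endoderm markers, CER1 alone moved far on Day1, to 441 ± 98.5 normalised CPM, against 0.769 ± 0.686 on Day0. The 3 summed to 339 to 538 on Day1, against 1.01 to 1.92 on Day0. SOX17 was at 0 on Day0 and at 0.623 ± 0.915 on Day1, and FOXA2 at 0.837 ± 0.721 and 1.96 ± 1.72 (SD, n = 3 each). The sum of the 5 neural markers rose on the later days. It was 546 to 731 normalised CPM on Day0, 648 to 803 on Day1, 1460 to 1660 on Day2 and 1770 to 2200 on Day3. STMN2 averaged 490 ± 137 on Day2, against 192 ± 64.5 on Day1. NES averaged 1590 ± 309 on Day3, against 768 ± 341 on Day2 (SD, n = 3 each). Not every neural marker rose on Day3. From Day2 to Day3 the means of STMN2 (490 to 269), MAP2 (227 to 80.9) and PAX6 (60.8 to 27.6) fell. SOX1 averaged 11.75 on Day2 and 24.55 on Day3, where its libraries ranged from 3.66 to 45.2. The part of both lists in the changes between days was not tested.

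In the course, 2 of the 9 members tested differed among the 23 time points (PDK1 and KDM3A), where 28.9% of all 13653 genes tested passed. The slope passed for 5 members, all falling (PDK1, BNIP3, VEGFA, P4HA1 and KDM3A), where 33.6% of all genes passed in either direction and 17.5% with a fall. Only PDK1 of these changed by 1 log2 unit or more, and the median slope was -0.38 over the members and -0.02 over all genes. At 300 to 360 min against 30 to 90 min, 3 passed (ADM and NDRG1 higher, PDK1 lower), where 16.9% of all genes passed. At 630 to 690 min against 300 to 360 min, 3 passed, all lower (ADM, NDRG1 and PDK1), where 12.9% did, and at 630 to 690 min against 30 to 90 min, 2 passed, both lower (PDK1 and BNIP3), where 25.2% did. A rhythm of 300 min, near the period of the segmentation clock gene HES7 that gave the series its title, was tested in every gene. HES7 itself did not pass (adjusted p = 0.406). No member passed in edgeR, DESeq2 or limma, where 0.132% of all genes passed in edgeR. KDM3A was the 1 member with an unadjusted p under 0.05 in edgeR (0.014, adjusted p = 0.235) and in DESeq2, and 0 members had one in limma. With no filter CA9 was added, and at a period of 270 min 0 members had one.

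The HIF subunits showed no change that passed. HIF1A averaged 318.5, 312, 312 and 294 normalised CPM from Day0 to Day3, with no difference among days (edgeR, adjusted p = 0.87) and a course slope of -0.10 ± 0.10 (adjusted p = 0.453). EPAS1 was too low to be tested, with means of at most 2.29 normalised CPM on any day. ARNT did not pass in any comparison. Of the 14 tested genes of the oxygen sensing and HIF complex list, 5 (35.7%) differed among the days, where 43.6% of all genes did, and 5 had a course slope, where 33.6% of all genes had one, so both shares lay near or below the background. Of these slopes 4 rose (CITED2, EGLN2, HIF1AN and VHL) and 1 fell (EGLN1). VHL, the ligase subunit, averaged 59.3 ± 15.6 normalised CPM on Day3, against 22.3 ± 11.8 on Day2 (SD, n = 3 each; log2 fold change 1.41 ± 0.32, adjusted p = 0.00554). EGLN2, another prolyl hydroxylase, fell on Day2 against Day1 (-0.98 ± 0.21, adjusted p = 0.00451) and rose on Day3 against Day2 (1.01 ± 0.21, adjusted p = 0.00303), the same directions as EGLN3. EGLN1, the main HIF hydroxylase in most cells, averaged 75.2 ± 32.2 normalised CPM on Day2, against 38.7 ± 8.40 on Day1, without passing (adjusted p = 0.0848). In the course EGLN1 fell by 1.08 ± 0.18 (adjusted p = 2.37e-06). CITED2, which competes with HIF for its coactivators, rose along the course, with 666 ± 51.5 normalised CPM at 630 to 690 min, against 120 ± 21.8 at 30 to 90 min (SD, n = 6 each; adjusted p = 1.99e-20).

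**Figure D5:**
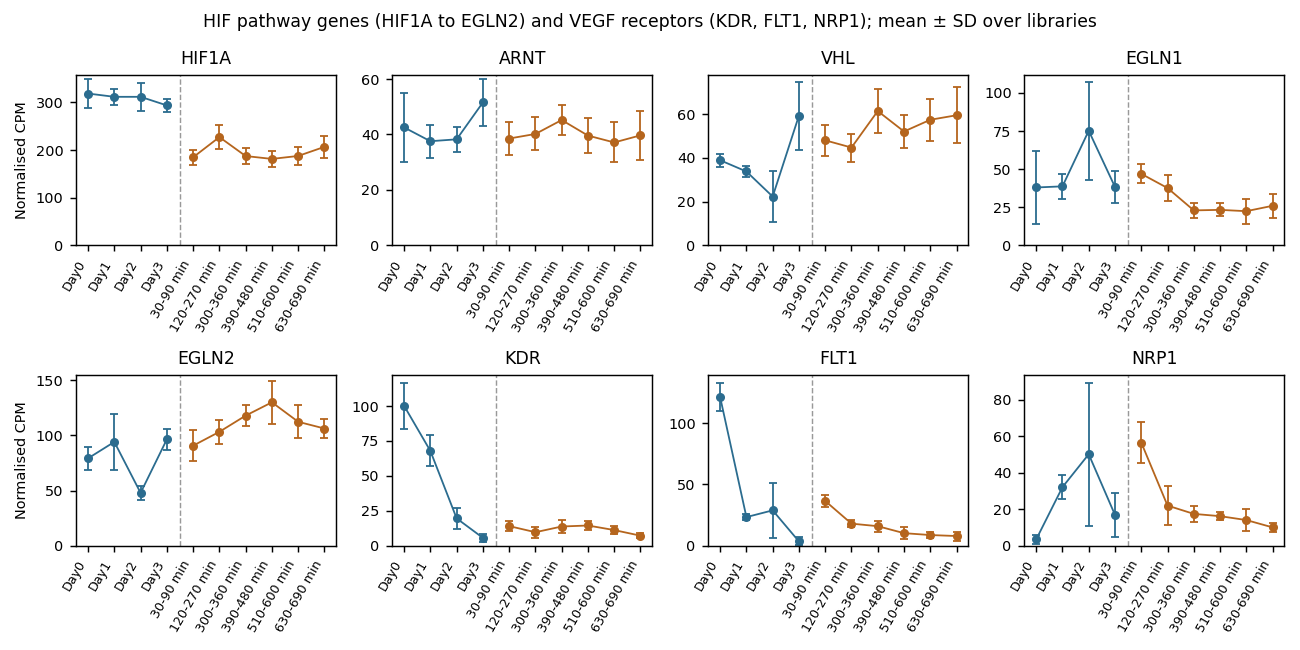
Normalised CPM (mean ± SD) of 5 oxygen-sensing genes and 3 VEGF receptors on the 4 days (blue, n = 3) and in 6 windows of the course (orange, n = 6 to 12), which were scaled apart. HIF1A is nearly flat over the days, with means of 294 to 318.5, and KDR and FLT1 drop after Day0.

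Other known HIF targets moved in both directions. Of 32 tested in a list of 35, 18 (56.2%) differed among the days, where 43.6% of all genes did. On Day2 against Day0, 13 passed (40.6%, against 31.0% of all genes), 3 higher and 10 lower, with a median of -0.38 on the log2 scale (all genes -0.12). AK4, a mitochondrial adenylate kinase, averaged 310 ± 89.6 normalised CPM on Day0, 82.6 ± 6.66 on Day1, 21.6 ± 9.94 on Day2 and 10.4 ± 1.69 on Day3 (SD, n = 3), and fell at each step. Like ADM, it was lowest on Day3 (log2 fold change against Day0 -4.88 ± 0.32, adjusted p = 1.58e-08). STC2, a secreted glycoprotein, had its highest mean on Day1, as had VEGFA, EGLN3 and PDK1, whose Day1 rises over Day0 did not pass in the full fit. STC2 averaged 14.2 ± 7.60 normalised CPM on Day2, against 85.0 ± 13.7 on Day1 (adjusted p = 0.000273). CCNG2, an atypical cyclin, rose to 182 ± 31.2 normalised CPM on Day3, against 68.7 ± 19.2 on Day0 (adjusted p = 0.000159), and like NDRG1 was higher at 300 to 360 min (192 ± 17.5) than at 30 to 90 min (72.2 ± 15.7, n = 6 each; adjusted p = 1.44e-16) and then fell. In the course slope, 7 of the 32 rose and 9 fell, where 33.6% of all genes passed, with a median of -0.11 (all genes -0.02).

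Most glycolytic targets of HIF fell in the course, as PDK1 did. Of 18 tested, 12 had a falling and 2 a rising slope (77.8%, where 33.6% of all genes had a slope and 17.5% a falling one), with a median of -0.37 on the log2 scale (all genes -0.02). SLC2A1, the glucose transporter GLUT1, averaged 265 ± 40.9 normalised CPM at 30 to 90 min, 68.2 ± 8.83 at 300 to 360 min and 44.6 ± 9.01 at 630 to 690 min (SD, n = 6 each), a slope of -2.92 ± 0.17 (edgeR, adjusted p = 2e-22). SLC16A3, which exports lactate, had a slope of -2.59 ± 0.16 (adjusted p = 3.88e-21), and LDHA, which makes lactate, one of -0.51 ± 0.07 (adjusted p = 5.72e-08). HK2 and PFKP, enzymes of early glycolysis, rose (0.54 ± 0.15 and 0.63 ± 0.18). On Day3 against Day2, 7 of the 18 fell and 1 rose, PFKP (44.4%, against 22.6% of all genes), with a median of -0.63 (all genes 0.08). SLC2A3, a high-affinity glucose transporter, averaged 4420 ± 317 normalised CPM on Day1, against 1690 ± 121 on Day0 (SD, n = 3 each; adjusted p = 0.000506), and fell on Day2 and Day3, so that its days had the same order as those of PDK1.

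Genes of the amino acid and ER stress responses, which share some targets with hypoxia, were set beside the members. On Day1 against Day0, 4 of 10 passed, all higher, where 7.29% of all genes passed in either direction, with a median log2 fold change of 1.37 (all genes -0.01). ASNS, which makes asparagine, averaged 341 ± 63.4 normalised CPM on Day1, against 148 ± 11.3 on Day0 (SD, n = 3 each; adjusted p = 0.00163), and PSAT1, an enzyme of serine synthesis, 1176 ± 191 and 575 ± 126 (adjusted p = 0.00218). On Day2 against Day1, 6 fell and 1 rose, where 20.1% of all genes passed. In the course slope 8 of 10 fell and none rose, where 33.6% of all genes passed.

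Over the 46 course libraries, the gene outside all lists whose level was most like that of PDK1 was CDX1, a caudal homeobox factor of the posterior embryo, with a Pearson r of 0.902 on log2(CPM + 1). The next highest likeness was 0.762 for KDM3A with SF3B1, a splicing factor. NDRG1 was most like ATOH8 (0.696), P4HA1 most like TFDP1 (0.693), ADM most like BTG2 (0.657), BNIP3 most like CCT4 (0.656) and VEGFA most like XPO5 (0.643). EGLN3 with CUL5 (0.617) and ANKRD37 with FAM122C (0.491) were loosest. These libraries share 1 time course, so genes with a like slope correlate, and the values are descriptions.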

How the data were processed

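RNA-seq of 58 libraries from H1 cells was made with the LM-seq protocol from culture lysates, per the labels' protocols. The authors deposited expected counts per gene for 19084 genes, with no mitochondrial genes among them, and TPM values that the authors rescaled, since every library has the same sum. Per the submitters' processing notes, Bowtie 0.12.2 is a tool of the processing and both hg19 and mm8 appear as builds. Which program counted the reads, on which annotation, and what mm8 was used for is not given in the sources used. Sequences are those of RefSeq on GRCh38.p14, matched by symbol, and no coordinate of the files was used.

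Rounded expected counts went into edgeR 4.0.16 (quasi-likelihood tests, TMM, filterByExpr, Benjamini-Hochberg over all genes tested, threshold 0.05) in R 4.3.3, with no limit on fold. The 12 daily libraries (12765 genes) and the 46 course libraries (13653 genes) were fitted apart, because they are separate experiments. The course fits asked for any difference among 23 time points, a straight line in time, a cosine and sine of period 300 min beside a quadratic trend, and differences between windows of 3 time points. Standard errors are the log2 fold change divided by the square root of F. The scripts were tested on simulated counts with 200 changed genes. On Day1 against Day0 they recovered 28% of changes of 1 log2 unit and 64% of changes of 2. For the slope these shares were 72% and 89%, and for the last against the first window 56% and 82%. False calls made up 4.17%, 6.4% and 6.12% of the calls in the same order. A difference that did not pass, above all between days, can therefore still be a real one. Alternatives were RLE size factors, no filter, DESeq2 1.42.0, limma 3.58.1 on log2(TPM + 1), a replicate block, fewer libraries, a fold limit, other periods, and leaving out each library. When a course library was left out of the fit by time point, the trended dispersion of all 46 libraries was kept.

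Total expected counts were 3.16 to 7.81 M per daily library (median 5.13 M) and 2.53 to 8.96 M per course library (median 4.12 M). The upper limit behind a count of 0, taken as 3 counts, is 0.384 to 0.949 CPM in single daily libraries, and 0.335 to 1.18 CPM in those of the course. Both the floors and the intervals reflect counting error alone, because no molecular identifiers show which reads are copies of 1 molecule. Nothing in the labels tells whether replicates came from separate cultures. The p-values therefore reflect the spread among the libraries at hand, which may be technical. No replicate pair was close enough to be a duplicate (lowest chi-square per degree of freedom 7.84 in the days and 3.76 in the course).

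The 10 members and all lists were chosen with earlier results of these data known. All members are described. Of each other list the text takes from the 3 genes with the smallest adjusted p among the days, the 3 with the smallest in the course slope, HIF1A, EPAS1, ARNT, VHL, EGLN1, EGLN2 and the direct relatives of members. The likeness rule took, for each member, the 1 gene outside all lists with the highest Pearson r.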

Additional observations from a re-analysis of the deposited data

How the results depend on the processing

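Of 1071 recomputed results of single members that had passed, 978 still passed in the same direction, 93 no longer passed and 0 reversed. ADM on Day1, Day2 and Day3 against Day0 and on Day3 against Day2 passed in every alternative that tested it. So did the slope and later windows of PDK1, the Day1 dip of KDM3A and the rise and fall of NDRG1. The fall of EGLN3 on Day2 against Day1 did too. The exception was a limit on fold, which the Day1 fall of KDM3A (-0.97) and the rise of NDRG1 (0.86) lie under. In the 6 libraries of Day3 and Day2 alone, ADM did not pass the filter on low counts and was not tested, and 0 of 7 members passed in edgeR, in place of 3, with 2 (EGLN3 and PDK1) at an unadjusted p under 0.05.

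Asking for a log2 change of 1 left 1 member on Day1 against Day0, 1 in the course slope, 1 at 300 to 360 min against 30 to 90 min and 1 at 630 to 690 min against 30 to 90 min. The count of members that differed among time points was 4 with no filter (BNIP3 and NDRG1 added) and 5 in DESeq2 (ADM added too), in place of 2. The slope passed for 2 members on log2(TPM + 1) in limma, in place of 5. At 300 to 360 min against 30 to 90 min, 5 passed with RLE size factors and 5 in DESeq2, in place of 3, with BNIP3 and VEGFA added. The cause of these shifts was not tested, apart from the stricter rule on fold.

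Leaving out 1 library at a time gave 4 to 6 members among the days, 2 to 3 on Day1 against Day0, 3 to 4 on Day2 against Day1, 2 to 3 on Day3 against Day2, 2 to 4 on Day2 against Day0 and 2 to 3 on Day3 against Day0. In the course it gave 2 to 3 among time points, 2 to 5 for the slope, 0 for the rhythm, 1 to 5 and 2 to 3 for the successive windows, and 1 to 3 for the last against the first window. The slope count was 2 or 3 without any one of 20 libraries, in which BNIP3 and PDK1 always passed. At 300 to 360 min against 30 to 90 min it was 1 without replicate 2 of 90 min and 5 without replicate 2 of 300 or 450 min. At 630 to 690 min against 30 to 90 min it was 1 (PDK1) without replicate 1 of 30 or 690 min or replicate 2 of 60, 90, 630 or 660 min.

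Same-numbered replicates did not deviate together on the whole. Their median correlation was 0.0162 over 18 pairs of daily libraries (-0.133 to 0.196) and 0.00188 over 506 pairs in the course (-0.114 to 0.109). With 2 libraries per time point, the deviations of replicate 2 mirror those of replicate 1, so each course value is counted for both numbers. The numbers showed no general pairing of the libraries, and a link between a few of them was not tested. With the replicate number as a block, 5 members passed among the days, 2, 4 and 3 between successive days, 3 and 2 against Day0, 2 among time points, 5 for the slope, 0 for the rhythm, and 4, 3 and 2 between windows. The calls that the block added were VEGFA among the days (adjusted p = 0.0215), ADM on Day2 against Day1 (0.0456) and BNIP3 at 300 to 360 min against 30 to 90 min (0.0492). Depth limits CA9 and ANKRD37, whose levels lie near what 3 counts in a library are worth.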
